A study of Mus musculus with 6 samples.

Results

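The immediate-early transcription factors described here are the products of 10 mouse genes, namely Fos, Fosb, Fosl1 and Fosl2 of the FOS family, Jun and Junb of the JUN family, Atf3, and Egr1, Egr2 and Egr3 of the EGR family. The members were all probe sets that the platform annotation gives to exactly 1 of these symbols, which are 15 of the 45101 probe sets of the array. Each gene has 1 probe set or 2, and 5 genes have 2. The arrays measured RNA of murine hepatic stellate cells, which are pericytes of the liver that store vitamin A and turn into matrix-producing myofibroblasts after injury. Every sample was of the C57Bl/6 background and carried the transgenes CMV-rtTA and TRE-GFP-shRNA.p53.1224, so that GFP and a hairpin that silences p53 are made when doxycycline is present. Cells of the 3 proliferating arrays received 1 ug/ml of doxycycline and, per the labels, had little p53. Cells of the 3 senescent arrays, labelled control, kept their p53, so the groups differ in the drug as well as in the hairpin. The CMV promoter is not restricted to stellate cells. All cells grew in medium with serum, and no source used here gives the time of the last medium change or of harvest.

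Immediate-early genes are switched on within minutes of a stimulus such as serum, a growth factor or stress, without new protein synthesis, and their RNA is short-lived. MAP kinases carry the signal to factors already bound at the promoters, chiefly serum response factor with its ternary complex partners and CREB. FOS and JUN proteins pair through leucine zippers into the factor AP-1. EGR proteins bind GC-rich sites through zinc fingers and are held back by the co-repressors NAB1 and NAB2. In stellate cells AP-1 is known for driving genes of matrix turnover such as Timp1 and metalloproteinase genes.

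Promoter sequence is shown for 4 members because it holds the control elements named above. Each line runs 5′ to 3′ on the coding strand of the gene, from RefSeq windows of build GRCm38.p6. Capitals mark a serum response element (CArG box) and TGACGT or its reverse complement, the core of the cyclic AMP response element that CREB and ATF proteins bind. In Jun they mark TGACATCA, the AP-1-like element. For Egr2 only the 30 bases that hold both elements are shown.

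Fos, chr12:85473790-85473889, plus strand: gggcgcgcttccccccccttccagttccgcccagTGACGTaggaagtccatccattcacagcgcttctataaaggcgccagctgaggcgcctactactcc
Atf3, chr1:191183334-191183433, minus strand: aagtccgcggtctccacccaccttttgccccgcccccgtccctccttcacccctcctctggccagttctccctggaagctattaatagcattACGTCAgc
Jun, chr4:95052223-95052322, minus strand: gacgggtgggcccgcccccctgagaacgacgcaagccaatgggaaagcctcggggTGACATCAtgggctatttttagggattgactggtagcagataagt
Egr2, chr10:67537794-67537823, plus strand: agtCCATATATGGgcagcgACGTCAcgggt

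Of the 10 genes, 7 had a RefSeq window that was used, which spans 250 bases before the gene start and 50 after it. Both strands were searched. Among these 7, a CArG box was in windows of Egr2 alone, against 1.81% of all 27025 genes with a window. Sequence farther upstream was not searched, nor were Egr3 and Fosl1, which had no window, and Egr1. Windows on the chromosome that holds Egr1 were left out for the members but kept for the shares of all genes. The absence of a match therefore does not mean that a gene lacks the element. The core TGACGT was in Fos, Atf3 and Egr2, against 8.37% of genes. The full element TGACGTCA, which contains that core, and the AP-1 site TGANTCA were in no searched window of a member, against 2.03% and 8.97% of genes. The EGR site GCGNGGGCG was in Fosb and Fosl2, against 6.27%, and TGACATCA was in 4.18%. The searches for TGACGT and TGACATCA were added after the windows had been read. A match is a description of these letters, not evidence of binding.

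Levels below are RMA values on the log2 scale, and a difference of 1 is a doubling. Each gene was read from its brightest probe set, which was above the background level of 5.57 on average for all 10. It was set from 44 probe sets of olfactory receptors, of which 95% have a mean no higher. Differences are senescent minus proliferating, tested with limma over 45037 probe sets and called at a Benjamini-Hochberg adjusted p of 0.05. Array medians lay between 6.15 and 6.19. Correlations between arrays over all probe sets, which are not replicates, were at least 0.995 within a group and 0.989 to 0.992 between groups. The labels do not tell whether the 3 arrays of a group are separate animals, cultures or preparations. The p-values therefore cover the spread of these arrays alone, and that spread may be technical. Probe sets of poly-A spike-ins, transcripts added before labelling, averaged 10.53 to 10.72 on proliferating and 10.99 to 11.51 on senescent arrays. Relative to them the median probe set was lower in senescent cells by 0.59, so all changes are relative to the bulk of the genes. Scaling to them shifts every probe set of an array by the same amount, while the fit treats probe sets as separate. Under that scaling 37047 of the 45037 probe sets were called, in place of 5579. Calls and counts under it are therefore a description, to be read against that total.

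Proliferating replicate 1 stood apart for these genes. It exceeded both other proliferating arrays for all 10 genes, by more than 0.5 over their mean for 7 and by more than 1 for 5. Among the 12500 genes above background, 2.54% exceeded 0.5 and 0.336% exceeded 1, while 0.976% lay more than 0.5 under that mean and 0.0400% more than 1 under it. Measured the same way, proliferating replicate 2 exceeded its group's others by more than 1 for 0 genes, and proliferating replicate 3 for 1 gene (0.00800%). It was the highest of the 6 arrays for 7 of the 10 genes, against 20.6% of genes above background. Results are therefore given with and without this array, and without it the proliferating group has 2 arrays. This array was singled out on values of these same genes, so a smaller SE or adjusted p without it partly follows from that choice. Calls made without it are a description, not independent evidence.

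**Figure D1:**
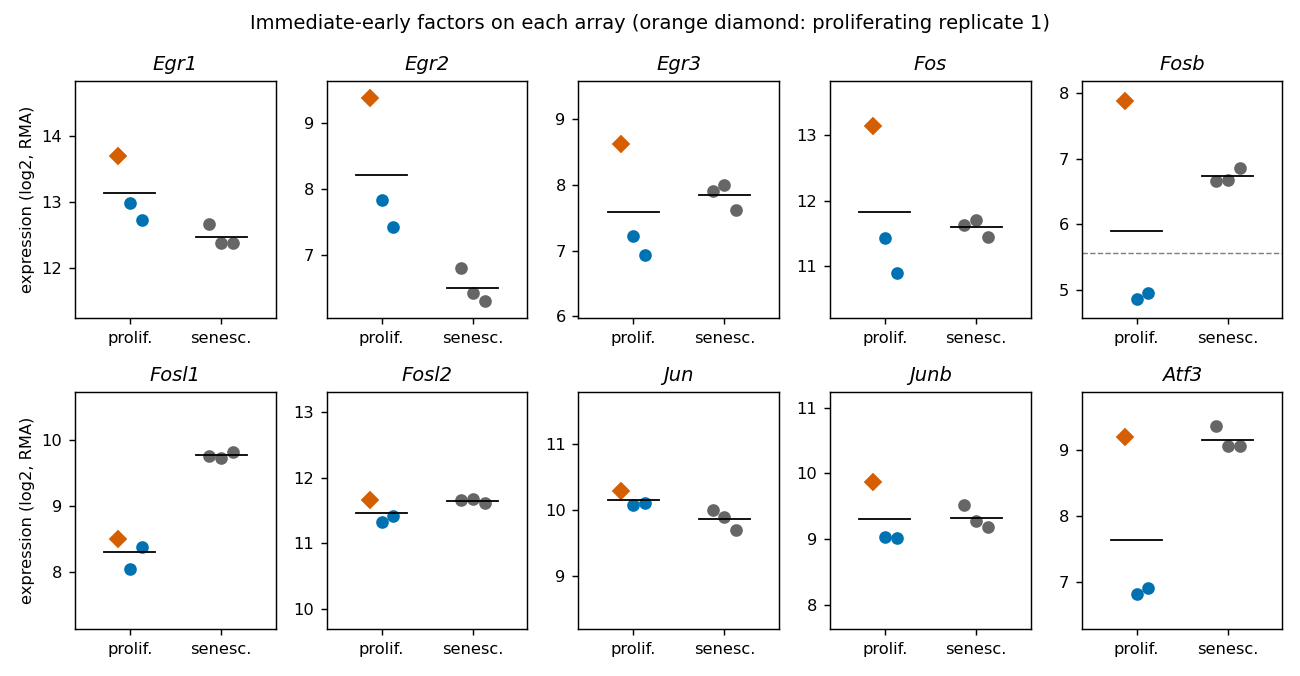
Expression of each factor (y axis, log2 RMA value of its brightest probe set, every panel spanning the same number of log2 units) on the 3 proliferating and the 3 senescent arrays, with bars at group means and a dashed line, within the range of the Fosb panel alone, at the background level of 5.57. Proliferating replicate 1, the orange diamond, is well above the blue points of the other proliferating arrays for Egr1, Egr2, Egr3, Fos, Fosb, Junb and Atf3.

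Senescent stellate cells had more Fosl1 RNA and less Egr2 RNA than proliferating cells, and no other of the 10 factors passed the test over all 6 arrays. Fosl1, which encodes the AP-1 subunit FRA1, was 2.77-fold higher, and Egr2, a zinc-finger factor also called KROX20, was 3.28-fold lower. Thus 1 of 10 genes rose, against 7.60% of 18194 genes called higher, and 1 fell, against 8.22% called lower. By probe sets, 2 of 15 rose and 2 fell, against 5.99% and 6.39% of all probe sets. Without proliferating replicate 1, 4 genes were called higher (Fosl1, Atf3, Fosb and Egr3), against 6.73% of all genes, and Egr2 alone lower, against 7.51%. The array was left out because of these same genes, so the comparison with those shares is a description alone. The median change of the 10 genes was 0.10, beside -0.0018 for all genes, and without that array 0.37 beside -0.012.

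In the FOS family, Fosl1 read 8.50, 8.05 and 8.37 on the proliferating arrays and 9.77, 9.73 and 9.83 on the senescent ones. The groups were far apart and every senescent array lay more than 1 above every proliferating one. The log2 change was 1.47 ± 0.12 (SE, n = 3 per group, limma adjusted p = 0.000319). Its dimmer probe set read 5.98, 5.92 and 5.96 against 6.93, 6.66 and 6.47, a change of 0.73 ± 0.12 (adjusted p = 0.00630), also without overlap. The call of the brighter set held with each array left out, with log2 changes of 1.34 to 1.56. Scaled to the spike-ins, with the limit given above, the brighter set was called (0.87) and the dimmer set was not (0.14).

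Fos, the founding member of the family and the classic serum-induced gene, read 13.13, 11.43 and 10.89 on the proliferating arrays. The senescent arrays read 11.63, 11.70 and 11.45. The senescent values sat within the proliferating range, below replicate 1 and above the other proliferating arrays, all 3 of them by less than 1. The change was -0.23 ± 0.48 (adjusted p = 0.835). Without proliferating replicate 1 it was 0.43 ± 0.16 (adjusted p = 0.153), so its sign rests on that array and no call was made either way.

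Fosb, a FOS paralogue best known from neurons, showed the widest spread among proliferating arrays. It read 7.88 on proliferating replicate 1, and 4.87 and 4.95 on the others, which lie below background. The senescent arrays read 6.66, 6.67 and 6.86, above background and between those extremes. Over 6 arrays the change was 0.83 ± 0.70 (adjusted p = 0.538). Without proliferating replicate 1 it was called (adjusted p = 0.000139). The senescent mean was 2.23-fold above background. Both remaining proliferating arrays are below background, so the senescent mean was at least 2.23-fold higher than theirs.

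Fosl2, which encodes the AP-1 subunit FRA2, did not pass. Its bright probe set read 11.66, 11.33 and 11.42 against 11.65, 11.68 and 11.62, so 1 proliferating array lay within the senescent range. The change was 0.18 ± 0.10 (adjusted p = 0.304). Its dimmer probe set gave 0.05 ± 0.10 (adjusted p = 0.826).

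In the JUN family, whose proteins can pair with each other or with FOS proteins, neither member passed. Jun read 10.28, 10.07 and 10.10 in proliferating and 9.99, 9.89 and 9.70 in senescent cells. The groups did not overlap, but the change was small, -0.29 ± 0.10 (adjusted p = 0.117), and its other probe set gave -0.03 ± 0.09 (adjusted p = 0.900). Groups did not overlap for 4 of the 10 genes, against 37.0% of all genes, and for 6 of the 15 probe sets, against 31.0%. Junb, often a weaker activator than Jun, read 9.87, 9.03 and 9.01 against 9.53, 9.27 and 9.19, with a change of 0.03 ± 0.22 (adjusted p = 0.962). Here too the senescent arrays lay below proliferating replicate 1 and above the other proliferating arrays. Jund, the JUN gene that is expressed without a stimulus, averaged 11.25 in both groups, with a change of 0.0018 ± 0.0959 (adjusted p = 0.994).

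Atf3, a stress-induced factor that represses or activates transcription depending on its partner, also had proliferating arrays far apart. It read 9.20 on proliferating replicate 1, but 6.81 and 6.90 on the other proliferating arrays. The senescent arrays read 9.36, 9.05 and 9.06, so proliferating replicate 1 lay within the senescent range and 2.34 above the mean of its own group's other arrays. The change over 6 arrays was 1.52 ± 0.56 and did not pass (adjusted p = 0.128). Without proliferating replicate 1 the senescent cells were 4.93-fold higher, with a log2 change of 2.30 ± 0.12 (adjusted p = 0.000108). With arrays weighted by their estimated quality, an alternative added after the values were seen, the change was 1.88 (adjusted p = 0.0334).

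Among the EGR factors, Egr2 read 9.38, 7.84 and 7.43 in proliferating cells, against 6.80, 6.42 and 6.30 in senescence. The groups were apart, with the highest senescent array under the lowest proliferating one. The change was -1.71 ± 0.44 (adjusted p = 0.0396), and its other probe set gave -1.82 ± 0.46 (adjusted p = 0.0368), from 9.14, 7.46 and 7.07 to 6.23, 5.99 and 5.97. Without proliferating replicate 1 both the change and its SE were smaller, at -1.13 ± 0.18 (adjusted p = 0.00768). The call of the brighter set ended without proliferating replicate 2 (-1.90, adjusted p = 0.0541) and without senescent replicate 1, 2 or 3 (-1.86, -1.67 and -1.61, adjusted p of 0.0776, 0.124 and 0.129). It also ended with array weights (-1.38, adjusted p = 0.0503).

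Egr1, the most widely expressed EGR gene, read 13.69, 12.98 and 12.72 against 12.65, 12.38 and 12.38. The groups did not overlap, though the nearest arrays differed by less than 0.1. The change was -0.66 ± 0.22 (adjusted p = 0.103), and it passed without proliferating replicate 3 (-0.86, adjusted p = 0.0476), while without proliferating replicate 1 it was -0.38 (adjusted p = 0.106).

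Egr3, known as a target of Egr1 and of calcium signalling, passed the test when proliferating replicate 1 was left out. It read 8.62, 7.21 and 6.93 in proliferating and 7.90, 7.99 and 7.62 in senescent cells. The change over 6 arrays was 0.25 ± 0.38 (adjusted p = 0.758) and without that array 0.77 ± 0.14 (adjusted p = 0.0138). Its dimmer probe set was flat, between 6.65 and 7.10 on all arrays, and did not show the high value of proliferating replicate 1. Scaled to the spike-ins without that array, an alternative added after the values were seen, Egr3 no longer passed (0.12), while Atf3 (1.65), Fosl1 (0.91) and Fosb did.

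**Figure D2:**
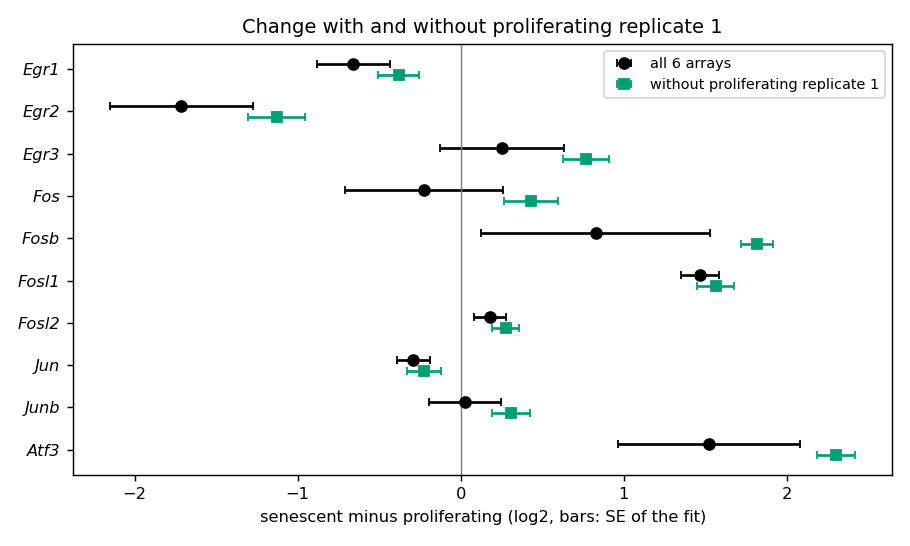
Senescent minus proliferating difference of each factor (x axis, log2, bars are standard errors of the limma fit) over all 6 arrays (black) and without proliferating replicate 1 (green). The standard error for Atf3 falls from 0.56 to 0.12 and for Fosb from 0.70 to 0.10, Fos changes sign, and the green point of Fosb rests on proliferating values below background, so that only its bound is measured.

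The spread within groups was unequal for these genes. Over the 10 genes the SD of the 3 senescent arrays was 0.029 to 0.26, and that of the proliferating arrays 0.11 to 1.71, larger in 9 of 10. For all genes above background the medians were 0.093 and 0.084. Proliferating replicates 2 and 3 differed from each other by 0.019 to 0.54 for the 10 genes. Genes were also ranked by the excess of proliferating replicate 1 over the mean of the other proliferating arrays, with values under background raised to it. Among the top 25 of the 12500 genes were 5 of the 10 factors. Atf3 (2.34) was exceeded by 1 gene, or by 3 at the values as deposited. Fos (1.97) was exceeded by 5, Egr2 (1.75) by 9 and Egr3 (1.55) by 11. The excess of Fosb was at least 2.31, a bound without an exact rank, because both other proliferating arrays lie below background. Other genes of that top 25, named after their values were seen, were Nr4a1, Csrnp1, Zfp36 and Dusp1, all immediate-early genes. It also held genes that were low in senescent cells, such as Tgfbi (8.22, 6.14 and 6.46 in proliferating cells, senescent arrays at most 5.06) and Ifitm1 (9.18, 7.42 and 7.22, senescent arrays at most 6.12). The high value of replicate 1 was thus not limited to genes that were high in senescent cells.

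The 3' minus 5' signals of proliferating replicate 1 lay within the range of the other arrays, while its estimated array weight was the lowest. The 3' minus 5' signal of Actb, a measure of RNA integrity, was 0.52 on proliferating replicate 1, 0.44 and 0.38 on the other proliferating arrays, and 0.50 to 0.60 on the senescent ones. The same difference for Gapdh was 0.093, against 0.10 and 0.045, and 0.095 to 0.30. Estimated array weights were 0.625 for proliferating replicate 1, 1.10 and 1.74 for the others of its group, and 0.656 to 1.17 for senescent arrays. The part of array quality, harvest or culture in these values was not tested.

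**Figure D3:**
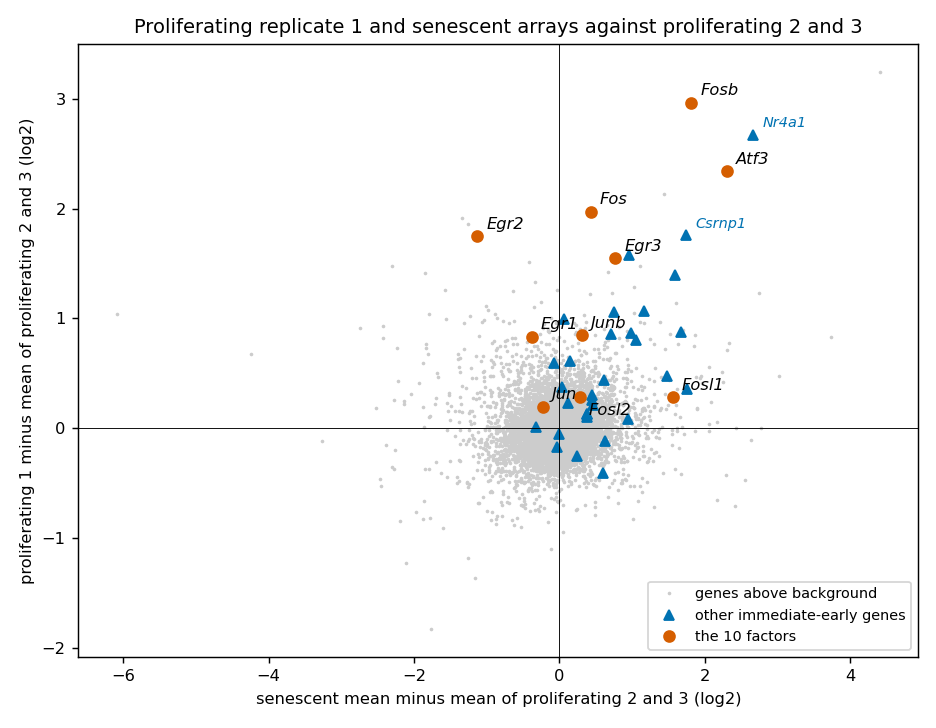
Excess of proliferating replicate 1 over the mean of proliferating replicates 2 and 3 (y axis, log2) against the difference of the senescent mean from that same mean (x axis, log2), for genes above background (grey), other immediate-early genes (blue) and the 10 factors (orange). Both axes share the mean of replicates 2 and 3. Atf3, Fos, Egr3 and Egr2 stand at 1.55 to 2.34 on the y axis, while Fosb is drawn at its values as deposited, of which only an excess of at least 2.31 is measured, Atf3 at nearly equal distances on both axes, and Egr2 on the left side.

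The genes with profiles most like the 3 members of widest range were found by Pearson correlation over the 6 arrays, given without a test because the 6 points fall into 2 groups and share those arrays. Atf3 was most like Nr4a1, an orphan nuclear receptor (r = 0.999), and Csrnp1, an AXIN1-induced nuclear protein (0.998), followed by Dapk1, Frat2 and Olfm1 (0.995 to 0.996). Nr4a1 read 11.10, 8.42 and 8.44 in proliferating and 11.34, 10.92 and 11.03 in senescent cells. Csrnp1 read 10.21, 8.46 and 8.44 against 10.25, 10.14 and 10.19. As for Atf3, proliferating replicate 1 lay within the senescent range of both genes. Fosb was most like Spon2 (0.996), Mmp11, Socs2, 1700109H08Rik and the immediate-early gene Ier3 (0.985). Egr2 was most like Ptges (0.996), a prostaglandin E synthase, Igf2, Cnot2, Slc40a1 and Gpc3 (0.991).

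Of 32 other immediate-early genes measured, 12 rose and 0 fell over 6 arrays, against 7.60% and 8.22% of all genes. Their median change was 0.39. Among the 12 called, Ptgs2, which encodes cyclooxygenase 2, changed most (3.11-fold, 1.64 ± 0.14, adjusted p = 0.000381). Next were the nuclear receptor gene Nr4a2 (2.61-fold), Hbegf, an EGF receptor ligand (2.50-fold), and Rhob, a small GTPase (1.89-fold). On proliferating replicate 1, 14 of the 32 exceeded the mean of the other proliferating arrays by more than 0.5. Without that array 21 rose and 0 fell, against 6.73% and 7.51% of all genes. With any other array left out 6 or 7 rose, and scaled to the spike-ins, where most probe sets were called, 6 rose and 9 fell. Nr4a1 was 6.35-fold higher without proliferating replicate 1 (adjusted p = 0.000105) and had an adjusted p of 0.121 with it. Dusp1, a phosphatase that switches off MAP kinases, was 3.02-fold higher without it (adjusted p = 0.000346) and had an adjusted p of 0.0715 with it. Gem, a small GTPase gene, went the other way, with 7.01, 5.36 and 5.73 in proliferating and 4.89, 5.31 and 4.90 in senescent cells, and did not pass (adjusted p = 0.132).

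Of 22 other AP-1 and ATF/CREB factors, 5 rose and 3 fell, against 7.60% and 8.22% of all genes, with a median change of 0.011. Scaled to the spike-ins, where most probe sets were called, 0 rose and 14 fell. The small MAF genes Mafk and Maff, which encode partners without an activation domain, rose 1.95-fold and 1.79-fold. Creb3, a factor anchored in the endoplasmic reticulum, rose 1.55-fold. Cebpd, a C/EBP family gene of the acute phase, was 3.01-fold lower (-1.59 ± 0.11, adjusted p = 0.000144), from 11.15, 11.41 and 11.51 to 9.76, 9.84 and 9.69. Creb1 was 1.39-fold lower.

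Of the 4 genes related to EGR factors, 2 fell and 0 rose, against 8.22% and 7.60% of all genes. Their median change was -0.39. Scaled to the spike-ins, where most probe sets were called, 4 fell. Nab2, a co-repressor of EGR proteins and itself one of their target genes, read 8.92, 9.04 and 9.17 in proliferating and 8.56, 8.50 and 8.40 in senescent cells. It fell 1.47-fold (-0.56 ± 0.09, adjusted p = 0.00663) and was not high on proliferating replicate 1. Wt1, a zinc-finger gene related to the EGR family, fell 2.16-fold, and 1.83-fold without proliferating replicate 1, on which it stood 0.72 above the others of its group.

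Upstream, of 20 genes of serum response factor, its partners and MAP kinases, 2 rose and 3 fell, with a median of 0.018, against 7.60% and 8.22% of all genes. Scaled to the spike-ins, where 37047 of 45037 probe sets were called in either direction, 0 rose and 15 fell. Srf, which encodes serum response factor, rose 1.41-fold (0.50 ± 0.08, adjusted p = 0.00663). Map2k6, an activator of p38 kinase, fell 1.93-fold, and Mapk7, which encodes ERK5, and Rps6ka3, a ribosomal S6 kinase gene, each fell 1.32-fold. Without proliferating replicate 1, 1 rose and 3 fell, since Mapk9 had an adjusted p of 0.0868. Without proliferating replicate 3, 1 rose and 1 fell.

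Downstream, of 22 genes described as AP-1 targets, 10 rose and 3 fell, with a median of 0.24, against 7.60% and 8.22% of all genes. The counts were again 10 and 3 without proliferating replicate 1, with a median of 0.21. More fell (11) than rose (6) when arrays were scaled to the spike-ins, where most probe sets were called. The cornified envelope gene Ivl rose 6.31-fold, the collagenase gene Mmp13 3.57-fold, the stromelysin gene Mmp3 3.23-fold and Plaur, the urokinase receptor, 2.59-fold. Mmp3 read 7.55, 7.61 and 7.48 against 9.21, 9.27 and 9.24, with proliferating replicate 1 beside its group. Ccl2, a monocyte chemoattractant, fell 1.71-fold and the metallothionein gene Mt1 1.67-fold. Some of these genes were known from earlier results of these arrays to have risen, so their count is no independent evidence. Of 15 genes described as EGR1 targets, 4 rose and 2 fell, against the same 7.60% and 8.22%, with a median of 0.15. With any array other than proliferating replicate 1 left out 1 or 2 rose. Scaled to the spike-ins, where most probe sets were called, 2 rose and 8 fell. Among the 4, Fgf2, named after its values were seen, was below background on all 6 arrays. F3, tissue factor, rose 2.85-fold and Vegfa by 0.58 on the log2 scale, while Nab2, given above, and Col1a2, a chain of collagen I, fell, the latter 1.41-fold.

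Of 16 integrated stress genes that accompany Atf3, 6 rose and 2 fell, against 7.60% and 8.22% of all genes, with a median of 0.12. After scaling to the spike-ins, where most probe sets were called, 1 rose and 8 fell. Ppp1r15a, which encodes the phosphatase subunit GADD34, rose 2.34-fold and, like Atf3, was high on proliferating replicate 1 (9.49, against 8.51 and 8.19, and 9.75 to 10.09 in senescent cells). Chac1, which degrades glutathione, rose 1.64-fold, Vldlr 1.53-fold and Sesn2 1.42-fold. Cebpb fell 1.36-fold and Psat1, of serine synthesis, 1.29-fold. Some called genes, among them Cebpb, Nab2, Vegfa and Hbegf, stand in more than 1 of the lists given here, so the lists' counts are not separate. Atf4, the factor that drives much of this programme, had a change of -0.04 ± 0.08 (adjusted p = 0.812). With any 1 of the 5 arrays other than proliferating replicate 1 left out, 2 or 3 of the 16 rose and 0 or 1 fell.

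**Figure D4:**
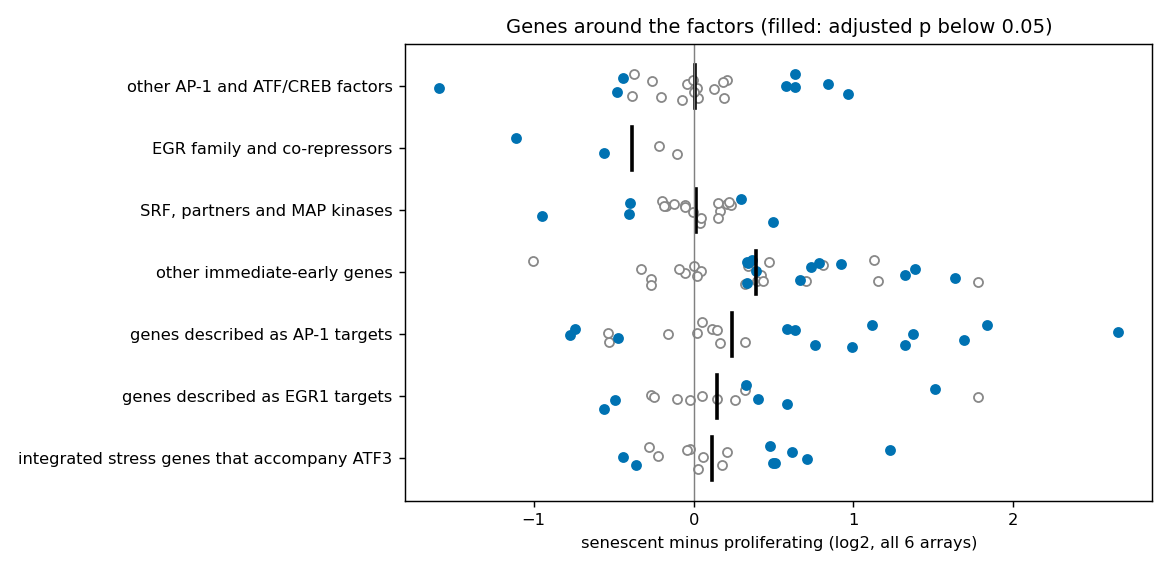
Senescent minus proliferating difference (x axis, log2, all 6 arrays) of the genes of 7 lists around the factors, 1 point per gene, filled where the adjusted p was below 0.05, with a bar at each list's median. The medians of other immediate-early genes and of genes described as AP-1 targets are 0.39 and 0.24, and that of the EGR relatives is -0.39.

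Of 13 stellate cell markers measured, 8 were above background, among them Acta2 (14.30 to 14.59 on all arrays), while Lrat, of vitamin A storage, was below it on every array (3.43 to 3.67). Of these 13, 0 rose and 4 fell, against 7.60% of all genes called higher and 8.22% called lower. Alb of hepatocytes, Ptprc of leukocytes and Pecam1 of endothelium were below background on every array. Above background were 3 of 10 hepatocyte, 6 of 10 macrophage, 3 of 10 endothelial, 4 of 5 biliary, 3 of 8 lymphocyte and 1 of 7 neutrophil markers. Of these lists, 1 endothelial, 1 macrophage and 1 biliary marker rose and 1 biliary marker fell, against the same 7.60% and 8.22% of all genes. Summed signals in proliferating and senescent cells (log2) were 10.18 to 10.22 and 10.17 to 10.26 for macrophage markers, and 9.62 to 9.90 and 9.88 to 9.99 for endothelial ones. Those of biliary markers were higher in senescent cells without overlap, 10.98 to 11.04 against 11.31 to 11.46. Those of stellate markers were lower without overlap, 16.69 to 16.77 against 16.62 to 16.65. The sums of hepatocyte, lymphocyte and neutrophil markers overlapped between groups. All 7 mesothelial markers, of which Wt1 and Krt19 stand in other lists as well, were above background. Of the 7, 3 were higher and 3 lower in senescent cells, against 7.60% and 8.22% of all genes. Their summed signal was 14.45 to 14.58 (log2) on proliferating and 14.58 to 14.60 on senescent arrays. In these bulk samples fewer cells of a kind and less RNA per cell cannot be told apart, and the part of other cells in the results was not tested.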

How the data were processed

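RNA extracted with Trizol was labelled with biotin and hybridised to Affymetrix mouse arrays, per the labels' protocols. The deposited log2 values were made by the authors with RMA, per the submitters' processing notes, with software and filters not given in the sources used here. RMA equalises the arrays' distributions and compresses changes of dim probe sets. The number of arrays limits the precision.

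Of 45101 probe sets, 64 controls were left out of the fit. The annotation gives 34945 of the others 1 symbol, 932 several and 9160 none, and a RefSeq table (GRCm38.p6) held the gene numbers of 34754. Groups came from sample titles. A linear model without covariates and with moderated variances was fitted in R 4.3.3 (limma 3.58.1) and was tested on simulated data. The hairpin's own target was not analysed here. The members and lists were chosen with earlier results of these data known. Genes named are the 10 members, Jund, up to 4 called genes per list by size, up to 2 called in the direction opposite to the list's median, and the 5 genes most like each of the 3 members of widest range. Other names were picked once values had been seen. The alternatives tried concern probe sets, variance model, normalization, filters, replicate block and left-out arrays.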

Additional observations from a re-analysis of the deposited data

How the results depend on the processing

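The calls and directions of all 15 probe sets were the same with a robust variance trend, a second quantile normalization, median centring, filters at background or at the median level, and without probe sets of suffix _s_at or _x_at. Those of the 10 genes were the same with 1 probe set per gene in the fit or the mean of a gene's probe sets, for which probe set counts do not apply. Scaled to the poly-A spike-ins, which lowers the median probe set by 0.59, 37047 probe sets were called in place of 5579, 11 member probe sets in place of 4, and 2 member genes were higher and 5 lower. Reversed there were both probe sets of Egr3 (-0.34 and -0.46) and of Fosl2 (-0.41 and -0.54), and Junb (-0.57). With proliferating replicate 1 also left out the counts were 35572, 10, 3 and 3, and reversed were the dim set of Egr3 (-0.58), both of Fosl2 (-0.37 and -0.60) and Junb (-0.34). With that array left out and median centring, 7 member probe sets were called and 4 member genes higher, and Fos was 0.44. With array weights 2 member genes were higher and 0 lower, and Fos was 0.15. With 1 array left out, calls ranged from 3258 to 5298 over all probe sets, from 2 to 7 for member probe sets, from 1 to 4 for genes higher and from 0 to 2 for genes lower. Log2 changes that crossed 0 then were those of Egr3 (-0.077 to 0.77), Fos (-0.69 to 0.43), Junb (-0.12 to 0.31) and the dim sets of Fosl2 (-0.042 to 0.15) and Jun (-0.066 to 0.047). The cause was not tested. Whether the replicate numbers pair the arrays is not known. Deviations of same-numbered arrays correlated at 0.11, -0.11 and -0.16, and those of unlike-numbered arrays at -0.22 to 0.29. With so few arrays per group these values cannot decide it. With the replicate number as a block 4229 probe sets were called, 1 member gene was higher and 2 were lower, as Egr1 passed beside Egr2. Fosb lay below background on proliferating replicates 2 and 3, which leaves only a bound for its change.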
